A study of Mus musculus with 4 samples.

Results

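Aminoacyl-tRNA synthetases were examined in Neuro-2a cells, a mouse neuroblastoma line, after exposure to the pyrethroid insecticide deltamethrin. A list of 35 synthetase genes was matched by symbol to the probe sets of the array, with the older symbol without the final 1 counted as the same gene (Wars for Wars1, Sars for Sars1). A probe set was found for 34 of them, each with 1 probe set, out of 19505 named genes and 22206 probe sets. Of these, 18 encode cytosolic enzymes (19 listed) and 16 encode mitochondrial enzymes (16 listed), whose symbols end in 2. Aars1 was not analysed here.

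A synthetase attaches an amino acid to its matching tRNA, using ATP, and so supplies the ribosome with charged tRNAs. Most amino acids have separate nuclear genes for the cytosolic and the mitochondrial enzyme, while Kars1 and Gars1 each serve both compartments and Eprs1 joins the glutamyl and prolyl enzymes in a single protein. Several cytosolic synthetases sit in the multisynthetase complex, held together by the scaffold proteins encoded by Aimp1, Aimp2 and Eef1e1. Uncharged tRNA activates the kinase GCN2, which phosphorylates eIF2α and raises translation of the transcription factor ATF4, and many cytosolic synthetase genes are known ATF4 targets.

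Neuro-2a cells received either 30 µM deltamethrin in 0.1% DMSO or 0.1% DMSO alone, for 24 h, with 2 arrays in each group. Total RNA was hybridised to Clariom S Mouse arrays, which read a gene with 1 probe set in most cases. The labels do not say that the arrays of a group came from separate cultures, so the p-values cover the spread among these 4 arrays, part or all of which may be technical. The deposited values are log2 values, with array medians of 5.61 to 5.63 and array maxima of 18.65 to 18.75. Among sympathoadrenal markers, 9 of 11 were measured, with vehicle means from 6.62 (Th, tyrosine hydroxylase) to 16.71 (Stmn2, a neuronal microtubule protein). In 8 of these 9 both deltamethrin arrays lay below both vehicle arrays, as they did for 23.5% of all probe sets. Lists of astrocyte, oligodendrocyte and Schwann cell, microglia and macrophage, and fibroblast markers had vehicle means of at most 4.91, 4.20, 6.07 and 5.30.

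The promoters of the synthetases were searched for TGATGNAA (TTNCATCA on the other strand), the core of the C/EBP-ATF response element through which ATF4 acts. RefSeq promoters were used (build GRCm38.p6, 300 bases each, 250 before and 50 after the start site). Promoters on the chromosome of Lars1, Nars1, Hars1 and Hars2 were left out, so these genes were not searched. No promoter was matched to Wars1, Cars1, Rars1, Vars1 and Pars2, which were not searched either. Of the 34 genes, 25 were searched. Of the 11 cytosolic genes searched, 4 held the letters, Gars1, Tars1, Yars1 and Iars1. Of the 14 mitochondrial genes searched, 0 did. Of all 32851 promoters, 3.97% did. These 4 are shown with Sars1, Eprs1 and Wars2, which had some of the larger differences described further on and held no such letters. Each window runs from 60 bases before the start site to base 15 of the transcript, and capitals mark the motif.
Gars1: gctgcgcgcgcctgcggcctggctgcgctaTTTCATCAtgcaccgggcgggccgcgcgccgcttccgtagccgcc
Tars1: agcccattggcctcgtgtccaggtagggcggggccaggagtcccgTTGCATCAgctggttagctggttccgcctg
Yars1: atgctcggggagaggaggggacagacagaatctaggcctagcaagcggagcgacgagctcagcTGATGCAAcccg
Iars1: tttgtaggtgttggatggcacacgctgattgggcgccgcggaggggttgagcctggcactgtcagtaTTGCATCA
Sars1: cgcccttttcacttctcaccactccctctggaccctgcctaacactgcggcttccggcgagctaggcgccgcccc
Eprs1: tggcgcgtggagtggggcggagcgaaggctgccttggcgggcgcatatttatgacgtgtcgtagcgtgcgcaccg
Wars2: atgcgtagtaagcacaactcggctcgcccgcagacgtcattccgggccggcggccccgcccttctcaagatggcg

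The windows lie at chr6:55037941-55038015 on the plus strand (Gars1), chr15:11399644-11399718 on the minus strand (Tars1), chr4:129189843-129189917 on the plus strand (Yars1) and chr13:49682070-49682144 on the plus strand (Iars1). Those of Sars1, Eprs1 and Wars2 lie at chr3:108445245-108445319 on the minus strand, chr1:185362984-185363058 on the plus strand and chr3:99141030-99141104 on the plus strand. The motif began 30 bases before the start site in Gars1 and 15 before it in Tars1, and at transcript base 4 in Yars1 and base 8 in Iars1. The 4 cytosolic genes with the letters had log2 differences between deltamethrin and vehicle from -0.21 to 0.44 (median 0.26). The 7 searched cytosolic genes without them ran from -0.08 to 0.52 (median 0.30). Wars1, Lars1, Nars1, Cars1, Vars1, Rars1 and Hars1 were not searched and are in neither range. Among them is the largest cytosolic difference, that of Wars1 (0.85). The ranges overlapped, and the gene with the lowest cytosolic estimate, Iars1, was among those with the letters.

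Transcripts of most cytosolic synthetases had higher estimates with deltamethrin, while those of the mitochondrial enzymes were evenly split. The log2 difference, deltamethrin minus vehicle, was above 0 for 16 of 18 cytosolic and 8 of 16 mitochondrial genes. The highest estimates were those of the cytosolic and the mitochondrial tryptophanyl enzymes, Wars1 and Wars2, at 1.80-fold and 1.94-fold. No synthetase passed an adjusted p below 0.05 in limma, with 0 of 34 called in either direction where 0.432% of all probe sets were. At an unadjusted p below 0.05 in limma there were 6 higher (17.6% of the 34, against 6.83% of all probe sets) and 0 lower (against 6.84%). When the variance was allowed to follow the mean level (a mean-variance trend), 3 passed, all higher and all cytosolic (Wars1, Sars1 and Eprs1). Over all probe sets 2.25% passed as higher. Probe sets as bright as the cytosolic genes passed more often with the trend. Counting either direction, 396 of the 3671 probe sets in their level range passed, against 806 of all 22206.

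The cytosolic median was 0.23 (range -0.21 to 0.85) and the mitochondrial median -0.02 (range -0.32 to 0.96), beside a median of -0.02 over all probe sets and -0.03 over all named genes. Both deltamethrin arrays lay above both vehicle arrays for 11 of 18 cytosolic genes (61.1%) and 4 of 16 mitochondrial genes, against 20.3% of all probe sets. They lay below both for 1 cytosolic gene, Iars1, and 5 mitochondrial genes, against 23.5%. The cytosolic probe sets are brighter than most on the array, with mean levels from 11.46 to 17.14. Among all 3671 probe sets in that level range the median was -0.04, and 44.5% had estimates above 0. Both deltamethrin arrays lay above both vehicle arrays for 25.4% of the 3671, and below both for 1214 of them. Mitochondrial probe sets had mean levels from 4.93 to 12.68, and the 10221 probe sets of that range had a median of 0.00.

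**Figure D1:**
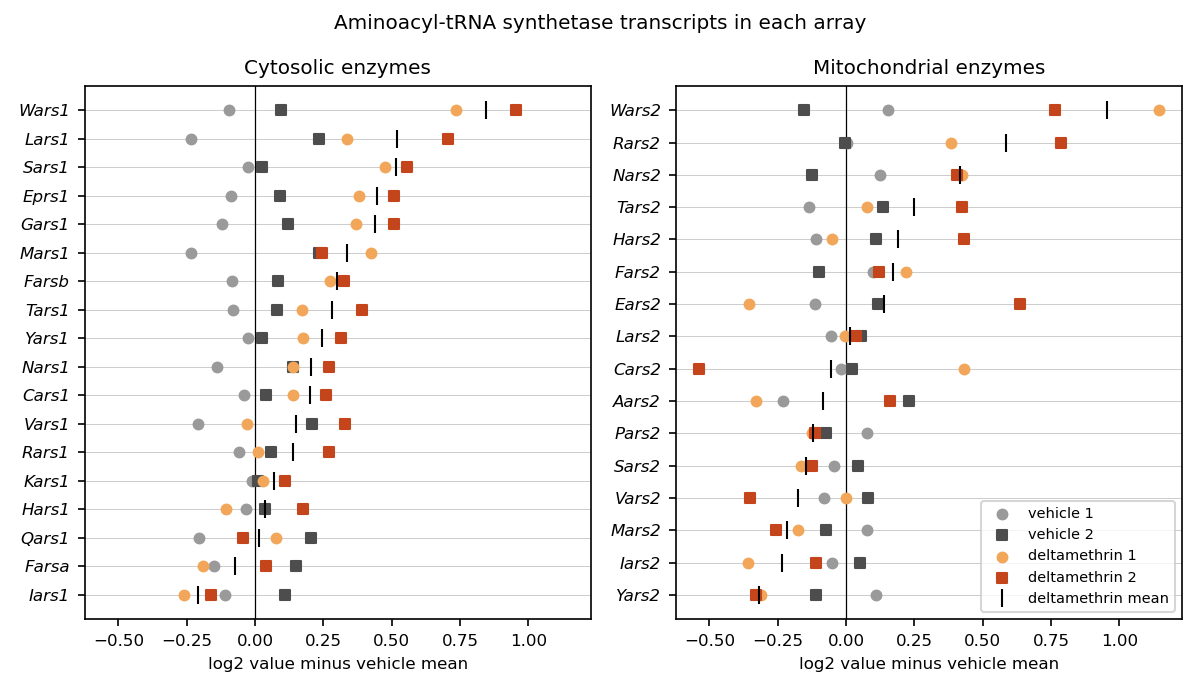
Log2 value of each synthetase in each array minus the mean of its 2 vehicle arrays (x axis, log2 units), for cytosolic enzymes on the left and mitochondrial enzymes on the right, ordered by the deltamethrin mean (black tick). Grey points are vehicle arrays and orange points deltamethrin arrays, with circles for replicate 1 and squares for replicate 2; Wars1 and Wars2 head the panels at 0.85 and 0.96.

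The cytosolic genes also moved together between arrays of the same group. Relative to the vehicle mean, the median over the 18 genes was -0.09 in vehicle array 1 and 0.09 in vehicle array 2, and 0.16 and 0.29 in deltamethrin arrays 1 and 2. All 18 genes were higher in vehicle array 2 than in vehicle array 1, and 16 of 18 were higher in deltamethrin array 2 than in deltamethrin array 1. Over all probe sets the shares were 49.2% and 49.96%. The gap between the vehicle arrays was thus close in size to the difference between the groups, and its part in that difference was not tested. Without vehicle replicate 1 the cytosolic median was 0.13, and without vehicle replicate 2 it was 0.35. For the mitochondrial genes, array 2 was the higher in 9 of 16 among vehicle arrays and in 9 of 16 among deltamethrin arrays, and their median turned to 0.08 without deltamethrin replicate 1 and 0.07 without vehicle replicate 2.

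**Figure D2:**
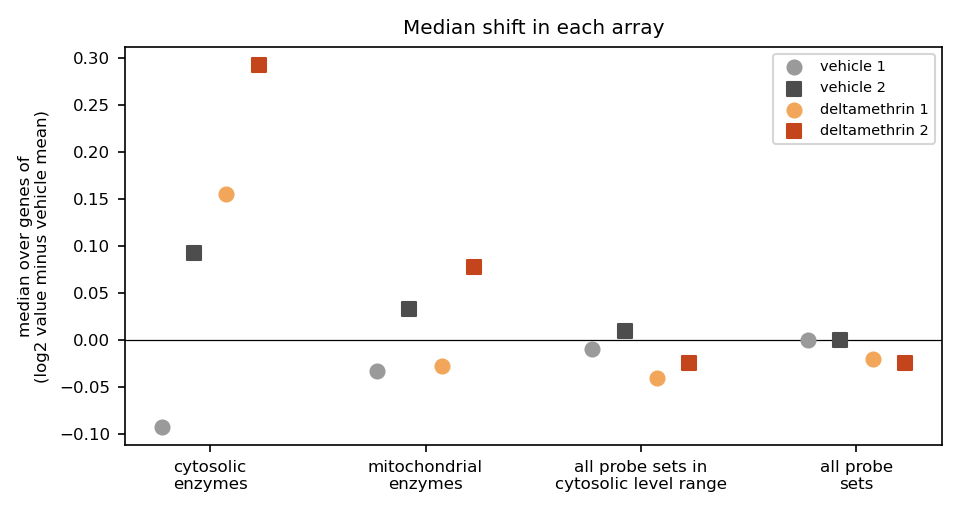
Median over genes of the log2 value minus the vehicle mean (y axis, log2 units) in each of the 4 arrays, for the 18 cytosolic enzymes, the 16 mitochondrial enzymes, the 3671 probe sets in the cytosolic level range and all probe sets. The cytosolic medians run from -0.09 in vehicle array 1 to 0.29 in deltamethrin array 2, while all probe sets stay between -0.03 and 0.00.

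Wars1, the cytosolic tryptophanyl enzyme, which is also induced by interferon in many cells, had the largest cytosolic difference. Its log2 values were 14.46 and 14.65 in the vehicle arrays and 15.29 and 15.51 in the deltamethrin arrays. The groups were separated by a gap larger than the spread within either. Group means were 14.56 ± 0.13 with vehicle and 15.40 ± 0.16 with deltamethrin (SD, n = 2). The log2 fold change was 0.85 ± 0.18 (SE, limma adjusted p = 0.143; 0.00454 with the trend). Over the other alternatives its adjusted p ran from 0.0573, without dim probe sets, to 0.678, without vehicle replicate 1.

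Sars1, which charges serine tRNA and the selenocysteine tRNA, read 15.32 and 15.37 in vehicle arrays and 15.82 and 15.90 in deltamethrin arrays. Replicates differed far less than the groups did, and the groups did not overlap. Its log2 fold change was 0.52 ± 0.16 (SE, limma adjusted p = 0.262; 0.0178 with the trend). Eprs1, the glutamyl-prolyl enzyme, read 16.83 and 17.01 against 17.30 and 17.43, again without overlap, a log2 fold change of 0.45 ± 0.17 (SE, limma adjusted p = 0.340; 0.0326 with the trend). Gars1, the glycyl enzyme, read 15.95 and 16.19 in vehicle arrays and 16.44 and 16.58 in deltamethrin arrays. It did not pass in either fit (0.44 ± 0.18, SE; limma adjusted p = 0.358, and 0.0531 with the trend).

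Lars1, the leucyl enzyme, which also acts as a leucine sensor for mTORC1, read 13.17 and 13.64 with vehicle and 13.74 and 14.11 with deltamethrin. The vehicle arrays differed by almost as much as the group means, and the log2 fold change of 0.52 ± 0.23 (SE) had a limma adjusted p of 0.395. Mars1, the methionyl enzyme, showed the same kind of spread, with 12.09 and 12.56 against 12.75 and 12.57. Its lower deltamethrin value hardly exceeded its higher vehicle value (0.34 ± 0.21, SE; adjusted p = 0.551).

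The phenylalanyl enzyme is built of a catalytic α subunit, Farsa, and a β subunit, Farsb. Farsb read 12.52 and 12.69 with vehicle and 12.88 and 12.93 with deltamethrin (0.30 ± 0.17, SE; adjusted p = 0.497). Farsa read 11.56 and 11.86 against 11.52 and 11.75, so its groups overlapped (-0.08 ± 0.19, SE; adjusted p = 0.907). The 95% confidence interval of the Farsa difference was -0.54 to 0.39, which includes the Farsb estimate.

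Yars1, the tyrosyl enzyme, read 15.15 and 15.20 with vehicle and 15.35 and 15.49 with deltamethrin, without overlap (0.25 ± 0.17, SE; adjusted p = 0.577). Vars1, the valyl enzyme, read 11.17 and 11.59 against 11.35 and 11.71, and Rars1, the arginyl enzyme, read 14.26 and 14.38 against 14.33 and 14.59. Both overlapped between the groups, with estimates of 0.15 and 0.14. Nars1, the asparaginyl enzyme, read 14.39 and 14.67 with vehicle and 14.67 and 14.80 with deltamethrin, so that a vehicle and a deltamethrin array were equal (0.21 ± 0.18, SE).

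Iars1, the isoleucyl enzyme, had the lowest cytosolic estimate. It read 14.46 and 14.68 in the vehicle arrays and 14.31 and 14.41 in the deltamethrin arrays, and was the only cytosolic gene with both deltamethrin values below both vehicle values. The difference was -0.21 ± 0.17 (SE, adjusted p = 0.657). The remaining cytosolic genes were Tars1 (threonyl, 0.28), Cars1 (cysteinyl, 0.20), Kars1 (lysyl, 0.07), Hars1 (histidyl, 0.04) and Qars1 (glutaminyl, 0.02), with adjusted p from 0.550 to 0.986. The interval of Kars1 was -0.32 to 0.46, so a difference of the size seen for Wars1 lies outside it, while one of the size seen for Eprs1 does not.

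Genes of the multisynthetase complex and the other cytosolic genes had overlapping estimates. The 7 measured members of the complex (Eprs1, Iars1, Kars1, Lars1, Mars1, Qars1 and Rars1) had a median of 0.14 and a range of -0.21 to 0.52, and 6 of 7 estimates were above 0. The 11 others had a median of 0.25 and a range of -0.08 to 0.85, with 10 of 11 above 0. This grouping, from textbook knowledge, was made after the values were seen. Of the scaffold genes 0 of 3 passed in limma (0.432% of all probe sets did) and 0 had an unadjusted p below 0.05 (6.83% of all probe sets higher, 6.84% lower), with Aimp1 at 0.32 ± 0.19, Aimp2 at -0.26 ± 0.19 and Eef1e1 at 0.00 ± 0.16 (SE).

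Among mitochondrial enzymes, Wars2, which charges tryptophan tRNA in mitochondria, had the largest difference of all synthetases. It read 5.56 and 5.25 in vehicle arrays and 6.55 and 6.17 in deltamethrin arrays, without overlap. Group means were 5.41 ± 0.22 with vehicle and 6.36 ± 0.27 with deltamethrin (SD, n = 2). The log2 fold change was 0.96 ± 0.21 (SE, limma adjusted p = 0.149; 0.0820 with the trend). Its vehicle level lay below the array median, so the fold depends on a dim value. Over the other alternatives its adjusted p ran from 0.0659 to 0.678.

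Rars2, the mitochondrial arginyl enzyme, read 9.78 and 9.77 with vehicle and 10.16 and 10.56 with deltamethrin, a log2 fold change of 0.59 ± 0.20 (SE, limma adjusted p = 0.282). The vehicle arrays were nearly equal and the deltamethrin arrays were both higher. Nars2, the mitochondrial asparaginyl enzyme, read 9.17 and 8.92 against 9.47 and 9.45, also without overlap (0.42 ± 0.18, SE; adjusted p = 0.373). Fars2, the mitochondrial phenylalanyl enzyme, read 8.48 and 8.28 against 8.60 and 8.50 and was barely separated (0.17 ± 0.17, SE).

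The lowest estimates among the synthetases were mostly mitochondrial. Yars2, the tyrosyl enzyme of mitochondria, read 11.17 and 10.95 with vehicle and 10.75 and 10.73 with deltamethrin (-0.32 ± 0.17, SE; adjusted p = 0.479). Iars2 read 12.75 and 12.85 against 12.44 and 12.69 (-0.24 ± 0.18, SE), and Mars2 read 8.66 and 8.51 against 8.41 and 8.33 (-0.22 ± 0.17, SE). These 3 genes, for tyrosine, isoleucine and methionine, had no overlap between groups, and none passed the test. Sars2 read 9.65 and 9.74 against 9.53 and 9.57 (-0.15 ± 0.16, SE), without overlap, and Vars2 read 6.59 and 6.75 against 6.67 and 6.32 (-0.18 ± 0.19, SE), with overlap.

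Cars2 and Ears2 differed most between replicates. Ears2, the mitochondrial glutamyl enzyme, read 6.53 and 6.76 with vehicle and 6.29 and 7.28 with deltamethrin, and Cars2, the cysteinyl enzyme, had a deltamethrin SD of 0.69 against 0.03 with vehicle. Neither allows a direction to be read. Lars2 read 9.24 and 9.35 against 9.29 and 9.33 and had an estimate of 0.02 ± 0.16 (SE), with a 95% confidence interval of -0.38 to 0.41. Pars2 read 5.06 and 4.91 against 4.86 and 4.87 (-0.12 ± 0.17, SE). Pars2 and Aars2 (-0.09 ± 0.25, SE) had mean levels below the median of all probe sets, 5.60. The last of the mitochondrial genes were Tars2 at 0.25 and Hars2 at 0.19, both with overlapping groups.

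The cytosolic and the mitochondrial enzyme of the same amino acid were then compared within each array, in 15 pairs of genes (Eprs1 is paired with both Ears2 and Pars2). The cytosolic difference was the larger in 10 pairs and the mitochondrial difference in 5, with a median of 0.26. Without 1 array the sign turned in 8 pairs, 5 of the 10 and 3 of the 5. The arrays of the groups did not overlap in 6 pairs, 5 of them with the cytosolic gene relatively higher under deltamethrin. Among single probe sets 43.9% did not overlap in either direction, so a count of 6 in 15 is not a result about the pairs. With 2 arrays against 2, an exact two-sided permutation test cannot give a p below 0.333, which each of these 6 pairs reached (0.770 after Benjamini-Hochberg adjustment over the 15 pairs). The pairs are therefore given as values, with no call.

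Serine had the largest difference. Relative to the vehicle mean, Sars1 less Sars2 was 0.02 and -0.02 in the vehicle arrays and 0.64 and 0.68 in the deltamethrin arrays. The difference was 0.66 ± 0.03 (SE). The SEs of pairs use only the spread of that pair in 2 arrays per group. Those of single genes come from limma, which draws on all probe sets, and were 0.16 for both Sars1 and Sars2. The 2 kinds are not comparable, and the small SE of this pair is itself uncertain. For tyrosine, Yars1 less Yars2 was -0.14 and 0.14 against 0.49 and 0.65 (0.57 ± 0.16, SE), and for proline, Eprs1 less Pars2 was -0.17 and 0.17 against 0.51 and 0.63 (0.57 ± 0.18, SE). Methionine (0.55 ± 0.31, SE) and leucine (0.51 ± 0.24, SE) completed the 5 pairs with the cytosolic gene higher in both deltamethrin arrays. These last values depended on the vehicle arrays, at 0.24 and 0.33 without vehicle replicate 1 and 0.86 and 0.69 without vehicle replicate 2. In the serine, tyrosine, proline and methionine pairs the cytosolic estimate was above 0 and the mitochondrial estimate below it.

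Arginine went the other way, with Rars1 less Rars2 at -0.07 and 0.07 in the vehicle arrays and -0.38 and -0.52 in the deltamethrin arrays (-0.45 ± 0.10, SE). For tryptophan the estimates were high in both compartments, and Wars1 less Wars2 differed by -0.11 ± 0.39 (SE) with overlapping arrays. For isoleucine the estimates were low in both, and the pair differed by 0.03 ± 0.10 (SE). The threonine pair differed by 0.03 ± 0.09 (SE), and the glutamate, cysteine, valine, histidine, asparagine and phenylalanine pairs by -0.25 to 0.33, all with overlap.

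**Figure D3:**
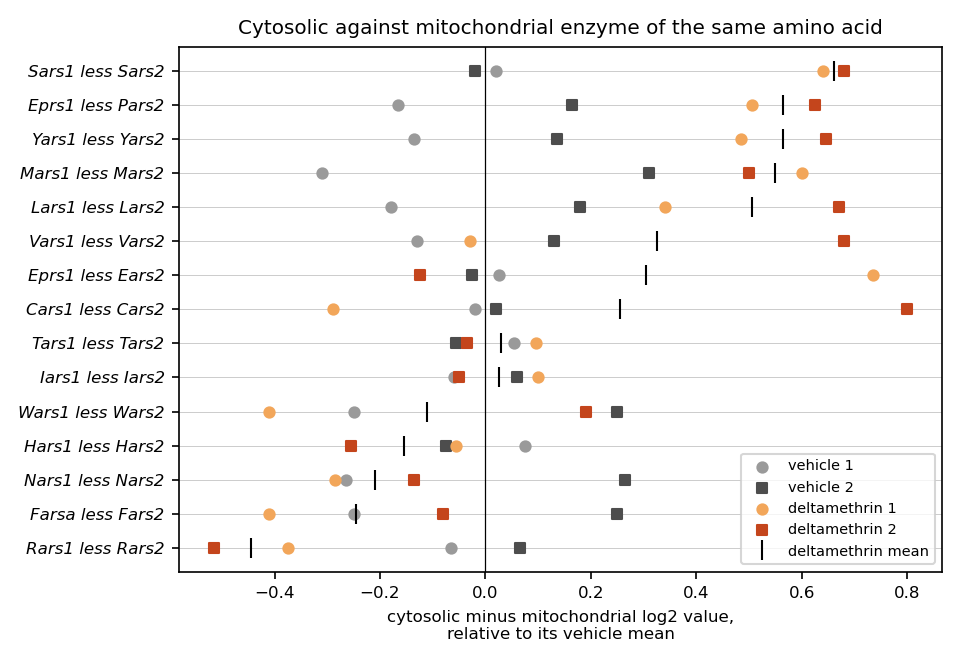
Cytosolic minus mitochondrial log2 value within each array, relative to the vehicle mean of that pair (x axis, log2 units), for 15 gene pairs ordered by the deltamethrin mean (black tick). Grey points are vehicle arrays and orange points deltamethrin arrays; Sars1 less Sars2 lies at 0.64 and 0.68 in deltamethrin arrays, and Rars1 less Rars2 at -0.38 and -0.52.

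Of the other enzymes that act on aminoacyl-tRNA or tRNA ends, 12 of 16 listed genes were measured and 0 passed, either in limma (0.432% of all probe sets) or with the trend (2.25% as higher). Their median was 0.18. The 3 of largest difference were Dtd1, a deacylase that clears D-aminoacyl-tRNAs (8.71 and 8.90 against 9.14 and 9.61), Pstk, which phosphorylates seryl-tRNA on the way to selenocysteine (9.34 and 8.90 against 10.09 and 9.28), and Sepsecs, which completes selenocysteinyl-tRNA (9.03 and 8.97 against 9.37 and 9.66). Dtd1 was at 0.57 ± 0.21 (SE, limma adjusted p = 0.327) and Sepsecs at 0.52 ± 0.18 (SE, limma adjusted p = 0.302), and both separated the groups. Pstk was at 0.57 ± 0.30 (SE, adjusted p = 0.478) with overlap. Among the 12 enzymes 2 had an unadjusted p below 0.05 in limma, both higher, where 6.83% of all probe sets were higher.

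Genes of the GCN2 and ATF4 axis, the pathway that senses uncharged tRNA and other stresses, had estimates from -0.18 to 3.03. Of 23 measured genes (24 listed), 5 rose, 0 fell and 18 did not pass in limma, where 0.356% of all probe sets rose. With the trend 9 rose, where 2.25% of all probe sets did. The median was 0.23, as for the cytosolic synthetases. The largest estimate, that of Ppp1r15a, depends on dim vehicle values of 3.45 and 3.79, below the array medians. The 5 were Ppp1r15a, the GADD34 phosphatase subunit (3.03), Ddit3, the factor CHOP (2.57), Aldh1l2, a mitochondrial folate enzyme (1.79), Trib3, a pseudokinase that restrains ATF4 (1.40), and Slc7a11, the cystine transporter (1.31). Without any 1 of the 4 arrays, 0 of these passed.

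Genes further down that list, singled out after their values were seen, were Atf4 itself at 16.01 and 16.06 against 16.21 and 16.32 (0.23 ± 0.17, SE) and Eif2ak4, which encodes GCN2, at 9.45 and 10.12 against 10.15 and 10.04 (0.31 ± 0.25, SE). Cebpg, an ATF4 partner, was at 11.72 and 11.66 against 12.30 and 12.38 (0.65 ± 0.16, SE; adjusted p = 0.187, and 0.0261 with the trend). Nupr1 (1.235), Chac1 (0.845) and Sesn2 (0.79) likewise passed with the trend but not without it. Asns, the asparagine synthetase and a standard ATF4 target, was at 17.95 and 18.10 against 17.85 and 18.09 (-0.06 ± 0.18, SE). The Asns values were close to the array maxima, and whether this limited the difference was not tested. Asns was not alone, since Psat1 (-0.06), Shmt2 (0.035), Mthfd2 (-0.015) and Slc7a1 (0.025) also had estimates near 0. Their mean levels were lower, at 16.59, 15.18, 14.88 and 13.68. In 13 of the 23 genes both deltamethrin arrays lay above both vehicle arrays (20.3% of all probe sets), and in 1 below (23.5%).

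**Figure D4:**
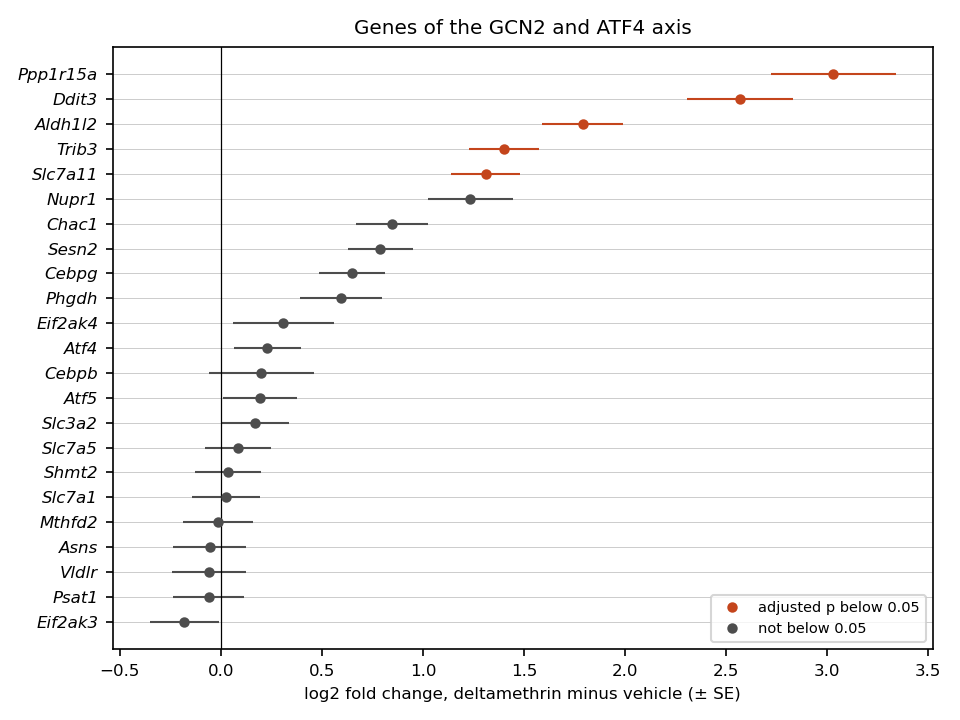
Log2 fold change, deltamethrin minus vehicle, with its standard error (x axis, log2 units) for the 23 measured genes of the GCN2 and ATF4 axis, in red where the adjusted p was below 0.05. The 5 red genes run from 1.31 (Slc7a11) to 3.03 (Ppp1r15a), while Asns sits at -0.06.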

How the data were processed

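The authors deposited log2 values, 1 per probe set and array. The submitters' processing notes name RMA and Transcriptome Analysis Console, and versions and genome build were not stated. RMA aligns the arrays' distributions, so a shift of all transcripts would not be seen. Genes were named from the platform annotation. All 22206 probe sets were fitted with limma 3.58.1 (R 4.3.3, lmFit and eBayes, no trend, no block), deltamethrin minus vehicle, two-sided, with Benjamini-Hochberg adjustment over all probe sets and a call below 0.05. The fit was tested on simulated data. The number of arrays limits the precision (median SE 0.19, log2). Batch and group cannot be told apart, since no batch label was at hand.

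The synthetases, lists and tests were chosen with earlier results of these data known. Every called synthetase, the 10 highest, the 6 lowest and their partner genes were given by array; of the other lists, called genes and the 3 of largest difference. Alternatives were the replicate block, a mean-variance trend, robust moderation, a filter at the 40th percentile of level, quantile, cyclic loess and median scaling, leaving out each array, an adjusted p below 0.01 and averaged probe sets per gene. The level ranges and the alternatives for the GCN2 and ATF4 axis were chosen after seeing the data. Partner proteins were not compared.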

Additional observations from a re-analysis of the deposited data

How the results depend on the processing

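The count of called synthetases, 0, became 3 (all higher) with the mean-variance trend and stayed 0 under each other alternative run. Calls over the whole array went from 96 to 806 with the trend, 312 without dim probe sets, 5 at an adjusted p below 0.01 and 0 with the replicate block (3221 at an unadjusted p below 0.05 in limma), and were 0 to 0 when leaving out each array (a group left with 1 array took its spread from the other). The GCN2 and ATF4 axis, with 5 genes called higher, had 9 with the trend, 0 with the replicate block, 0 at an adjusted p below 0.01 and 0 to 0 without each array. The replicate numbers share only a number in the labels; the deviations of same-numbered arrays correlated at 0.13, and the block left the synthetase count at 0. Leaving out each array gave a cytosolic median of 0.13 to 0.35, a mitochondrial median of -0.0425 to 0.0775 and a difference of medians of 0.17 to 0.28, which was 0.31 with quantile and 0.30 with cyclic loess scaling. The alternatives were followed for 23 synthetases, those given by array less Farsa and Fars2. Among the 23, direction turned for Vars1 (-0.06 to 0.36 without each array, below 0 without deltamethrin replicate 2 and without vehicle replicate 1). It turned for Ears2 (-0.355 to 0.635, below 0 without deltamethrin replicate 2). It also turned for Lars2 (-0.04 to 0.07, below 0 without the same arrays as Vars1, and -0.035 with quantile and -0.0066 with cyclic loess scaling). None of Vars1, Ears2 and Lars2 passed the test under any setting that kept all 4 arrays. Farsa was not followed, but its deltamethrin mean of 11.635 lay above vehicle array 1 at 11.56. Its direction therefore turns without vehicle replicate 2. Of the 15 gene pairs, 8 changed sign without 1 array (valine, glutamate, cysteine, threonine, isoleucine, tryptophan, asparagine and phenylalanine); the serine pair was at 0.64 to 0.68 without each array and 0.73 with both quantile and cyclic loess scaling. With no detection call in the values used here, dim probe sets such as those of Wars2, Pars2, Aars2 and Ppp1r15a may lie near background.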
